A study of Mus musculus with 4 samples.

Results

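Whole mouse embryos with and without Ddx6 were compared for 3 gene families that are expressed almost solely at the boundary of embryo and uterus: the placental prolactins (Prl), the pregnancy-specific glycoproteins (Psg) and the placental cathepsins. Members were chosen by symbol alone. They were the genes named Prl or Psg with a following digit, together with Cts3, Cts6, Cts7, Cts8, Ctsj, Ctsm, Ctsq and Ctsr. Of the 24421 genes in the count table, 47 were members, namely 26 Prl genes, 13 Psg genes and 8 cathepsins.

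Polyadenylated RNA of whole embryos on the ICR background was sequenced. A wild-type (WT) library was made from embryos of each of embryonic days (E) 7.5 and 8.5. Replicates 1 and 2 of knockout (KO) embryos at E8.5, called KO1 and KO2, complete the 4 libraries. KO embryos carried a deletion of exon 5 of Ddx6 on both alleles, from a floxed line crossed to a CAG-Cre deleter that acts in all tissues. According to the study's methods each KO library was a pool, KO1 of an embryo without and an embryo with head folds, KO2 only of embryos without them. Extraembryonic tissue or yolk sac was taken for genotyping, and how much of it, or of the decidua, stayed with the sequenced embryos is not given in the sources used here. Ddx6 had 2943 reads in the E7.5 and 5715 in the E8.5 WT library, 706 in KO1 and 929 in KO2, and total counts lay between 8198402 and 12562640. With 1 library for each wild-type stage, a difference from wild type could be set only against the gap between KO1 and KO2. Where 4 values follow a gene without library names, they stand in the order E7.5 WT, E8.5 WT, KO1, KO2.

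Trophoblast giant cells line the outside of the early conceptus and invade the uterine wall, where they secrete the placental lactogens and related hormones into the mother's blood. Spongiotrophoblast forms from the ectoplacental cone as the middle layer of the placenta and secretes other members of the same families. The decidua is not embryonic: it is the uterine stroma transformed by pregnancy, and it makes its own prolactin-family proteins. By textbook knowledge 15 members were assigned to giant cells, 10 to spongiotrophoblast and 2 to decidua, and 20 were left unassigned. Some members are expressed in more than 1 of these layers, so the classes and their sums are not exclusive of each other's tissue.

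Most reads of the families were in KO2, and most of the rest in E7.5 WT. The 47 genes together had 1762 reads in WT at E7.5, 53 in WT at E8.5, 81 in KO1 and 13775 in KO2. In CPM, which scales reads to the same library total, the summed level was 148 at E7.5 and 4.31 at E8.5 in WT, against 9.65 in KO1 and 1130 in KO2. KO2 was thus 262-fold above E8.5 WT (95% counting interval 200 to 350) and 7.63-fold above E7.5 WT (7.26 to 8.02). The gap between the KO libraries, 117-fold (94.2 to 148), was of the same order as the gap between KO2 and its stage control. Intervals here and below are exact binomial ones or, for odds ratios, exact conditional ones. They cover counting error only, not variation between embryos. In bulk RNA, fewer cells of a type and less RNA per cell cannot be told apart.

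At least 1 read was found for 21 members at E7.5 and 13 at E8.5 in WT, for 7 in KO1 and for 28 in KO2. At least 10 reads were found for 11, 1, 1 and 18 members, and at least 100 reads for 2, 0, 0 and 10, in the same order. Of the 47, 17 had no read in any library, 11 had some but under 10 in every library, and 19 passed the minimum of 10 counts in at least 1 library. Of these 19, 8 passed only through KO2, so a difference between KO2 and the rest was built into their selection. A count of 0 allowed a level of up to 0.252 CPM in the E7.5 and 0.244 in the E8.5 WT library, 0.357 in KO1 and 0.246 in KO2, taking 3 counts as the floor.

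A log2 change of CPM past 1 was used as the call, the size criterion of the study's methods, with no p-value attached. Against E8.5 WT, 18 members were higher in KO2, where 9.41% of all 14393 kept genes were. In KO1, 3 members were higher, against 4.97% of all genes, and those same 3 were the members higher in both KO libraries (3.44% of all genes): Prl8a2, Prl2c2 and Prl3d1. The last 2 rested on 4 reads against 0 and 3 against 1. A single member was lower in KO1, Psg22 with 0 reads against 3, where 3.31% of all genes were lower. Between the KO libraries, all 19 kept members were higher in KO2, where 5.99% of all genes were. Prl6a1 was so called on 3 reads against 0. For the 8 members kept only through KO2, counted both in these 19 and in the 18 above, a higher KO2 was built into the selection. Neither count can therefore be weighed against the share of all genes.

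Between the wild-type stages, 15 members were higher at E7.5 than at E8.5, against 7.82% of all genes. Several rested on few reads, such as Prl2c2 and Prl3d2 with 3 against 0 and Psg19 with 4 against 0. Relative to E7.5 WT, 14 members were lower in KO1 (7.45% of all genes), among them Prl3d2 with 0 reads against 3 and Psg19 with 0 against 4. In KO2, 14 were higher than in E7.5 WT (10.9% of all genes) and 2 were lower (4.06%). As a description only, since many members were kept through KO2, the median log2 change of the kept members was 5.68 for KO2 against E8.5 WT, 4.0 for KO2 against E7.5 WT, 1.80 for E7.5 WT against E8.5 WT and 0 for KO1 against E8.5 WT. Over all kept genes these medians lay between -0.01 and 0.07. Comparisons with the same wild-type library share its counting error.

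No member passed a replicated test of both KO libraries against E8.5 WT. In edgeR's quasi-likelihood test, 0 of 19 members and 0% of all genes passed an adjusted p of 0.05. At an unadjusted p under 0.05 edgeR gave 0 members, against 7.22% of all genes, and the members' adjusted p ran from 0.669 to 0.929. DESeq2 likewise passed 0 members after adjustment, against 0.243% of all genes, and gave no adjusted p for 9 members. At an unadjusted p under 0.05 DESeq2 gave 6 of 19 members, against 4.07% of all genes. The estimate of spread came from KO1 and KO2 alone, which were far apart for these genes, so the changes below are described library by library.

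**Figure D1:**
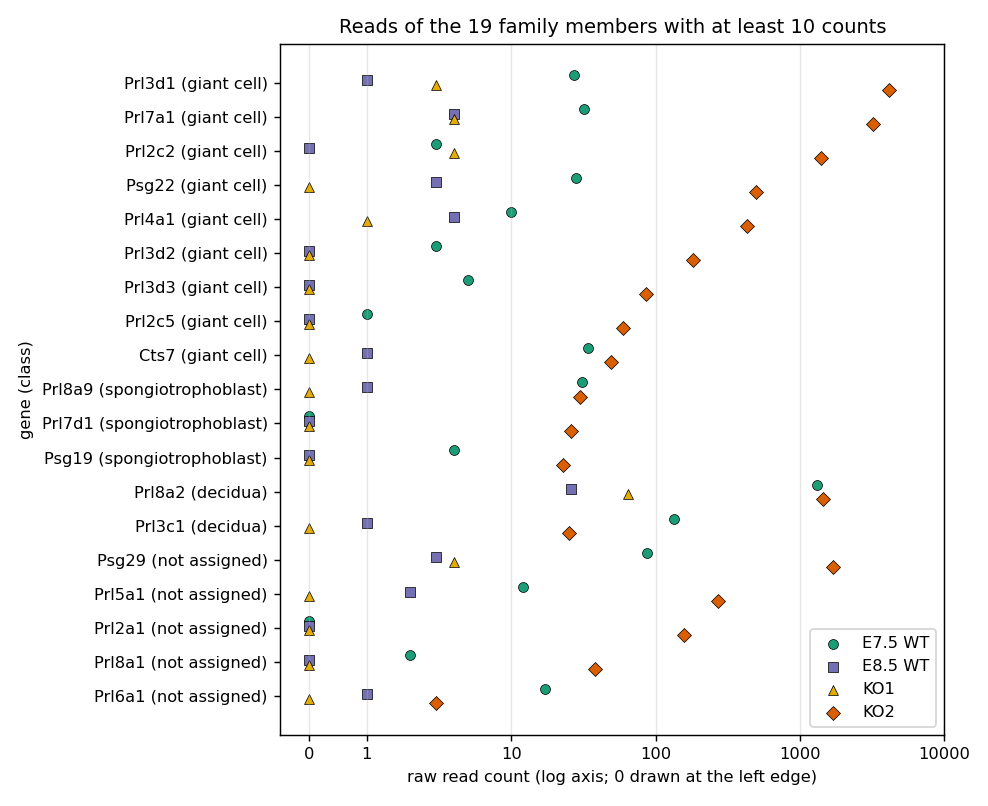
Raw reads of the 19 members with at least 10 counts in 1 library, on a log axis with 0 at the left, with 1 symbol per library and genes grouped by class. The KO2 diamonds are farthest right for most genes, E7.5 WT lies close to or above them for Prl8a2, Prl8a9, Prl3c1, Prl6a1 and Cts7, and E8.5 WT and KO1 lie at 4 reads or fewer for every gene but Prl8a2.

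The giant cell members carried most of the difference. Their summed level was 12.6 CPM in WT at E7.5 (95% interval 10.7 to 14.8), 1.38 in WT at E8.5 (0.806 to 2.21), 1.43 in KO1 (0.738 to 2.50) and 825 in KO2 (809 to 841). KO2 was therefore 65.4-fold above E7.5 WT (55.7 to 77.4) and 596-fold above E8.5 WT (372 to 1024), whereas KO1 and E8.5 WT differed by a ratio of 1.03 (0.450 to 2.30). Without Prl3d1, the member with the most reads, the log2 ratio of KO2 to E8.5 WT was 8.54 in place of 9.22.

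Prl3d1 encodes placental lactogen I, the first lactogen that giant cells secrete after implantation. It had 27 reads in WT at E7.5, 1 in WT at E8.5, 3 in KO1 and 4156 in KO2. KO2 exceeded E7.5 WT 150-fold (103 to 228) and KO1 955-fold (326 to 4631). Scaled by exon length, its level in KO2 was 390 CPM per kb, rank 46 among the genes with an annotated length. E7.5 WT, at 2.27 CPM, was itself above E8.5 WT, at a ratio of 27.9 (4.60 to 1142), and above KO1, whose ratio to it was 0.157 (0.031 to 0.511).

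Prl7a1, a non-lactogenic giant cell hormone also known as prolactin-like protein E, followed Prl3d1 most closely of all members. Its reads were 32 at E7.5 and 4 at E8.5 in WT, against 4 in KO1 and 3193 in KO2, a 97.4-fold excess of KO2 over E7.5 WT (68.8 to 143). The ratio of Prl7a1 to Prl3d1 reads in KO2 was 0.648 times that in E7.5 WT (0.373 to 1.12), an interval that includes 1. Per kb it reached 162 CPM in KO2, rank 192.

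Prl2c2, proliferin, is a giant cell hormone that promotes vessel growth in the decidua. It had 3 reads in the E7.5 and 0 in the E8.5 WT library, 4 in KO1 and 1400 in KO2. Its ratio of KO2 to E7.5 WT, 455 (156 to 2211), rested on those 3 reads. Prl4a1, known as prolactin-like protein A, which binds uterine natural killer cells, had 10, 4, 1 and 431 reads in the same order of libraries. KO2 was 42.1-fold above E7.5 WT for Prl4a1 (22.7 to 88.4). Both genes thus had at most 10 reads outside KO2, where their levels were 105 and 40.4 CPM per kb.

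Psg22, the main Psg gene of early giant cells, had 28 reads in WT at E7.5, 3 in WT at E8.5, 0 in KO1 and 493 in KO2. The excess of KO2 over E7.5 WT was 17.2-fold (11.7 to 26.1). Psg29, a Psg gene with no class assigned here, had 87, 3, 4 and 1700 reads and an excess of 19.1-fold (15.4 to 23.9). The ratio of Psg22 to Psg29 reads was nearly the same in KO2 and E7.5 WT (odds ratio 0.901, 0.575 to 1.45). Psg29 relative to Prl3d1, in contrast, was lower in KO2 than in E7.5 WT (odds ratio 0.127, 0.0790 to 0.198). Psg29 in KO2 was therefore nearer to its E7.5 WT level than Prl3d1 was.

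Cts7, the one cathepsin above the count minimum, did not share the excess of KO2 over E7.5 WT. This lysosomal protease of early trophoblast had 34 reads at E7.5 and 1 at E8.5 in WT, against 0 in KO1 and 49 in KO2. KO2 and E7.5 WT differed by a ratio of 1.41 (0.890 to 2.25). Relative to Prl3d1, Cts7 in KO2 was 0.00944 times its E7.5 WT proportion (0.00505 to 0.0174). Cts8 had 7, 4, 0 and 3 reads, and Ctsj and Ctsq had 1 read each, in KO2. Prl3b1, placental lactogen II, which replaces Prl3d1 in giant cells from midgestation, had no read in any library.

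Several giant cell members are near-identical copies, and their separate values are uncertain. The longest transcripts of Prl3d1, Prl3d2 and Prl3d3 were 98.4% to 98.5% identical to each other, and only 44.4%, 31.8% and 32.5% of their 50-base words were found in no other gene. Prl3d2 had 3, 0, 0 and 181 reads and Prl3d3 5, 0, 0 and 86. Prl2c2 and Prl2c3 were 99.5% identical, and 14.0% of the words of Prl2c2 were unique to it. Prl2c5 had 1, 0, 0 and 59 reads, whereas Prl2c3 and Prl2c4 had none in any library. RefSeq lists Prl2c4 as an older symbol of Prl2c3, so these 2 of the 47 members may be 1 gene. Prl7a1, Prl4a1, Cts7 and Prl8a2 had no word in common with another gene.

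The sequences before the start of giant cell genes are shown because several Prl genes, Prl3d1 and Prl7a1 among them, have a stretch in common there. RefSeq promoters (build GRCm38.p6) were given for 39 members, and 250 bases before the annotated start were read for each. Prl8a2, Prl2c1, Prl2c2, Prl2c4, Prl7b1, Psg16, Psg19 and Psg22 had no entry. Capitals mark 3 words searched on both strands: TATAGGAGG, AGATAA and TGANTCA. The first was picked by eye from these promoters, and AGATAA is the core word of GATA factors. TGANTCA is a loose form of the AP-1 word, in which N stands for any base, so not every match is an AP-1 word. Prl3b1, with no read in any library, stands last for contrast.
Prl3d1 (chr13:27093939-27094188, plus strand): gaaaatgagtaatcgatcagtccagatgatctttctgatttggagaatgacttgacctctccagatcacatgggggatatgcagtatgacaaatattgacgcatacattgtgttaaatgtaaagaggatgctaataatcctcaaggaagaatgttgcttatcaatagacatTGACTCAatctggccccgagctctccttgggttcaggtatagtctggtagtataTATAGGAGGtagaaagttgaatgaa
Prl3d2 (chr13:27121445-27121694, plus strand): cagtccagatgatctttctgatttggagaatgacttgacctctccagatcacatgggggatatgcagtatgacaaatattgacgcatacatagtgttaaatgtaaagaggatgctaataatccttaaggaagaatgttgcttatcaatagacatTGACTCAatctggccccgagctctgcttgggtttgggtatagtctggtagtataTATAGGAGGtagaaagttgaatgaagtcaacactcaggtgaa
Prl7a1 (chr13:27642494-27642743, minus strand): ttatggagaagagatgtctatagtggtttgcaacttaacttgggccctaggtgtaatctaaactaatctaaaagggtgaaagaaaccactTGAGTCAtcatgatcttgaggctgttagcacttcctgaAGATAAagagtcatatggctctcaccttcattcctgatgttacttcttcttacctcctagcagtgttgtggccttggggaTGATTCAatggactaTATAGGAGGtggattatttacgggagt
Prl4a1 (chr13:28015962-28016211, plus strand): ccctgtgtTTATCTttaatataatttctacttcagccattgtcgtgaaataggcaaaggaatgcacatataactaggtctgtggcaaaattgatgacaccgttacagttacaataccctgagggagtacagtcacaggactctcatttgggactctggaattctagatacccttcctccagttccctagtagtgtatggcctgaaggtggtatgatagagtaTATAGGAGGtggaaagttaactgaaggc
Prl3b1 (chr13:27242180-27242429, plus strand): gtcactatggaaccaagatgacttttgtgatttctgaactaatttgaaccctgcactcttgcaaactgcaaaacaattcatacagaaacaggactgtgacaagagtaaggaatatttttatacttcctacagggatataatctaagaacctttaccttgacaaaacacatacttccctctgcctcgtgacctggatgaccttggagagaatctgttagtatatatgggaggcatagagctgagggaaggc

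The word TATAGGAGG occurred in 8 of 21 Prl promoters and in no promoter of the 10 Psg genes or 8 cathepsins. Among all 27025 promoters 0.163% held it. Its first base lay 25 to 46 bases before the start. Of the 15 kept members with a promoter, 6 held it, namely Prl3d1, Prl3d2, Prl3d3, Prl7a1, Prl4a1 and Prl2a1. The other kept members with a promoter did not, including Psg29 with 1700 reads and Prl5a1 with 272 in KO2. For the kept members Prl8a2, Prl2c2, Psg19 and Psg22, which had no entry, this is not known. Prl7a2 and Prl2b1 held it with at most 3 reads in any library. Since the word was picked from these promoters, and some of the genes were kept only through KO2, nothing is read from its overlap with high reads. AGATAA was found in 9 of 39 member promoters, against 10.3% of all, and TGANTCA in 10 of 39, against 6.87%. Some matches lie in copies of 1 sequence, so these counts are not of independent promoters. TATAGGAGG and TGANTCA were both found in Prl3d1, Prl3d2 and Prl3d3, which were 97.9% to 99.6% identical upstream. AGATAA was found in Prl2c3, Prl2c5 and Prl7d1, whose upstream bases read closely alike. Prl3d1 and Prl3d2 were 97.9% identical over 233 aligned bases upstream, and KO2 gave them 4156 and 181 reads. Their transcripts are near-identical too, so the split of reads between them is uncertain. A match is a description of letters and does not show that a factor binds.

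The decidual members had another pattern, with summed levels in E7.5 WT and KO2 that coincided. Their summed level was 122 CPM in WT at E7.5 (116 to 129), 2.20 in WT at E8.5 (1.45 to 3.20), 7.62 in KO1 (5.87 to 9.73) and 120 in KO2 (114 to 126). The ratio of KO2 to E7.5 WT was 0.979 (0.910 to 1.05), beside 65.4 for giant cell members. The giant cell to decidua ratio of reads in KO2 was 66.8 times that in E7.5 WT (55.9 to 80.2).

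Nearly all of these reads were from Prl8a2, decidual prolactin-related protein, a product of maternal decidual cells. It had 1318 reads in the E7.5 and 26 in the E8.5 WT library, 64 in KO1 and 1433 in KO2. KO1 stood 3.60-fold above E8.5 WT (2.25 to 5.92) and 14.5-fold below E7.5 WT. Prl8a2 was the member with the most reads in KO1 and at both WT stages, but the fourth in KO2.

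Prl3c1, a second decidual hormone, was lower in KO2 than in E7.5 WT, unlike Prl8a2. It had 135 reads in WT at E7.5, 1 in WT at E8.5, 0 in KO1 and 25 in KO2. KO2 was 5.53-fold below E7.5 WT, and KO1 at least 31.8-fold below it. Relative to Prl8a2, Prl3c1 in KO2 was 0.170 times its E7.5 WT proportion (0.106 to 0.265). The decidual pair thus did not keep 1 ratio, and without Prl8a2 the log2 ratio of KO2 to E8.5 WT was 4.66 in place of 5.77, and that of KO2 to E7.5 WT -2.47 in place of -0.03. Prl6a1, not assigned here, had 17, 1, 0 and 3 reads and was likewise lower in KO2 than in E7.5 WT.

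**Figure D2:**
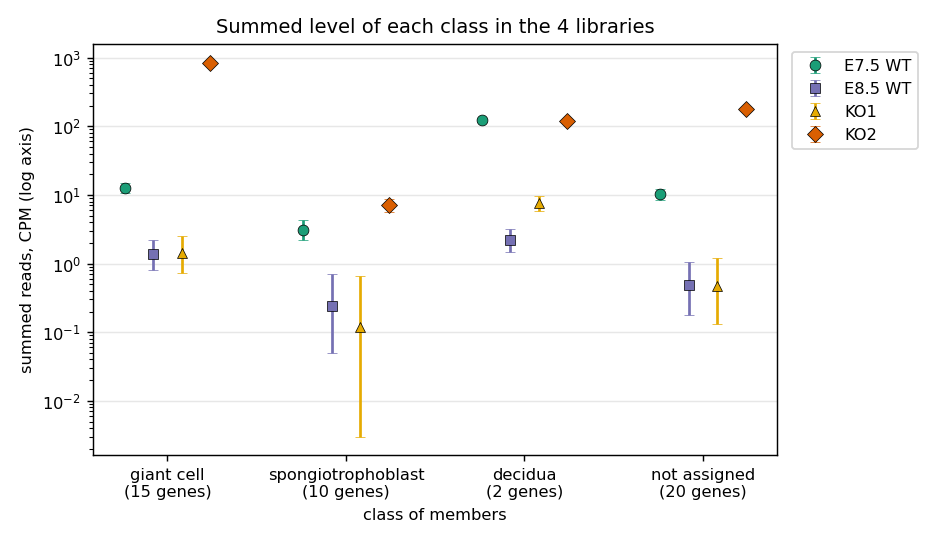
Summed CPM of each class of members in the 4 libraries on a log axis, with exact 95% binomial intervals. E7.5 WT and KO2 coincide for decidua at 122 and 120 CPM but stand 65.4-fold apart for giant cell members, and E8.5 WT and KO1 overlap for every class except decidua.

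Spongiotrophoblast members were low in every library. The 10 genes together had 37 reads at E7.5 and 3 at E8.5 in WT, against 1 in KO1 and 87 in KO2. The ratio of KO2 to E7.5 WT was 2.30 (1.55 to 3.47), or 1.20 on the log2 scale, which became 3.21 without Prl8a9. Prl8a9, also called prolactin-like protein C2, had 31, 1, 0 and 30 reads, so that KO2 and E7.5 WT differed by a ratio of 0.945 (0.552 to 1.61). Prl7d1, proliferin-related protein, which inhibits vessel growth, had no read outside KO2, where it had 26. Psg19 had 4, 0, 0 and 23 reads. Psg17, Psg18, Psg21, Psg23, Prl7a2, Prl8a6 and Prl8a8 had at most 5 reads in any library.

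Of the 20 unassigned members, 10 had no read and 5 passed the count minimum. KO2 was above E7.5 WT for 4 of the 5, namely Psg29, Prl5a1, Prl2a1 and Prl8a1, and below it for Prl6a1. Their summed reads gave a ratio of KO2 to E7.5 WT of 17.4 (14.5 to 21.1). Prl5a1, prolactin-like protein L, had 12 reads in the E7.5 and 2 in the E8.5 WT library, 0 in KO1 and 272 in KO2, a 22.1-fold excess of KO2 over E7.5 WT (12.5 to 43.3). Prl2a1, prolactin-like protein M, had no read in the other three libraries and 157 in KO2, at least 51.1-fold above E7.5 WT. Prl8a1 had 2, 0, 0 and 38 reads. Psg20 had 4 reads in E7.5 WT and none elsewhere, and Psg25, Psg26, Prl2c1 and Ctsr had 3, 1, 2 and 1 reads in KO2 and none elsewhere. Prl2b1, Prl3a1, Prl7b1, Prl7c1, Psg16, Psg27, Psg28, Cts3, Cts6 and Ctsm had no read.

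**Figure D3:**
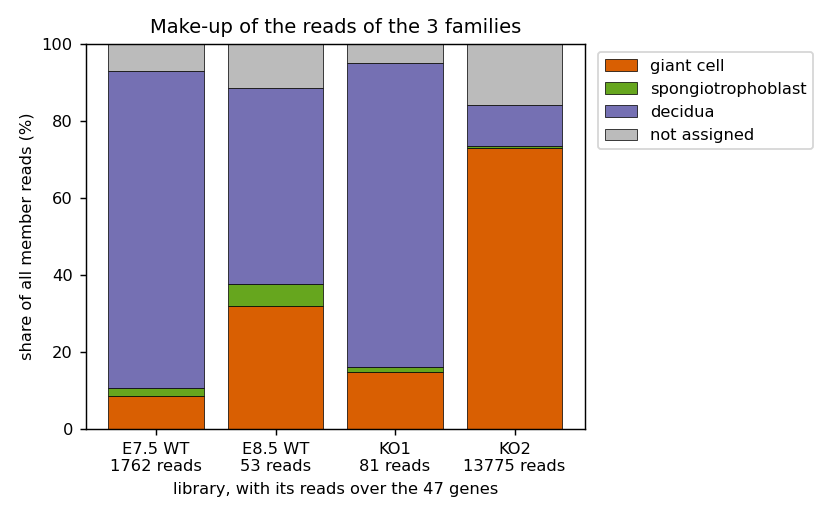
Share of all member reads taken by each class in each library, in percent, with the number of reads under each bar. Decidual members made up 82.5% of the reads in E7.5 WT and 79.0% in KO1, but 10.6% in KO2, where giant cell members made up 73.0%.

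The make-up of the member reads differed accordingly. Decidual members took 82.5% of them in WT at E7.5 (80.6% to 84.2%), 50.9% in WT at E8.5 (36.8% to 64.9%), 79.0% in KO1 (68.5% to 87.3%) and 10.6% in KO2 (10.1% to 11.1%). Giant cell members took 8.51%, 32.1%, 14.8% and 73.0% in the same order. The interval of KO1 for decidua included the value of E7.5 WT, but KO1 held 81 member reads in all, and the 53 reads of E8.5 WT left wide intervals.

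All members with a matched position lay in 4 gene clusters (GRCm38). The main Prl cluster (chromosome 13, 27094190 to 28151611) held 22 members, of which 8 had at least 10 reads in WT at E7.5, 1 in WT at E8.5, 1 in KO1 and 12 in KO2. Along it, genes with many reads in KO2 alternated with genes at 0. Prl3d1, Prl3d2 and Prl3d3 were followed by Prl3c1, which was higher in E7.5 WT, and by Prl3b1 and Prl3a1, both without a read. Prl7a1 lay between Prl7b1, with no read, and Prl7a2, with at most 3. The 3 Prl2c genes (chromosome 13, 12790816 to 13191923) included 2 with at least 10 reads in KO2. Among 13 Psg genes (chromosome 7, 17074040 to 18821607) there were 3, and among 8 cathepsins (chromosome 13, 61000179 to 61570127) 1.

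**Figure D4:**
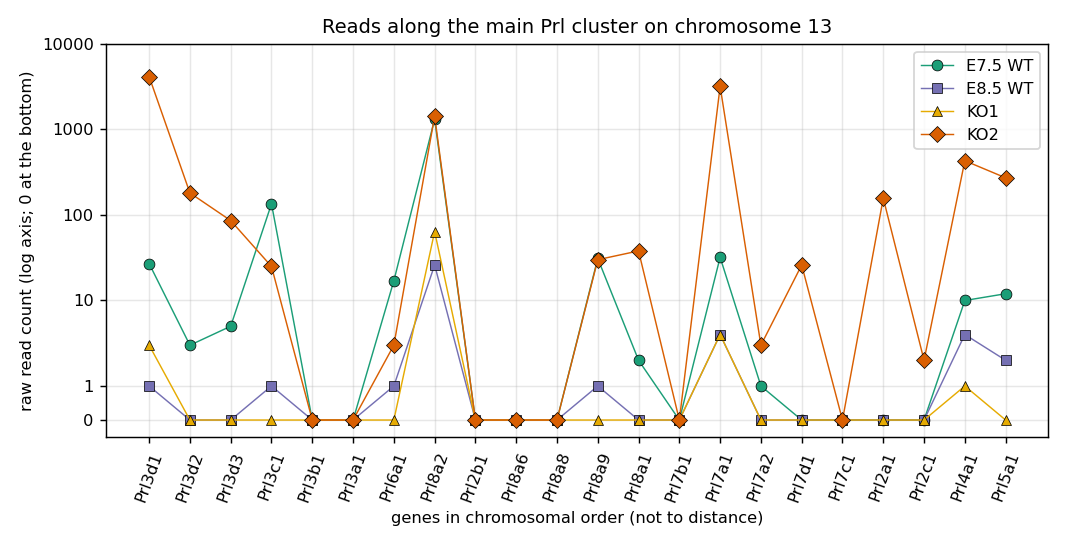
Raw reads of the 22 Prl genes of the main chromosome 13 cluster in chromosomal order, on a log axis with 0 at the bottom and 1 line per library; the lines only guide the eye. KO2 peaks at Prl3d1, Prl8a2, Prl7a1 and Prl4a1 with 4156, 1433, 3193 and 431 reads, and E7.5 WT peaks at Prl8a2 with 1318.

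The 7 other giant cell genes read beside the members did not share 1 pattern. Hsd3b6, a steroid-synthesising enzyme of giant cells, had 9 reads at E7.5 and 1 at E8.5 in WT, against 8 in KO1 and 657 in KO2. It passed the count minimum only through KO2. Adm, the secreted vasodilator adrenomedullin, had 111, 14, 5 and 1546. Plac1 had 323, 223, 230 and 939. Gata2, a transcription factor of trophoblast, had 835, 265, 197 and 442, so that KO2 was 1.94-fold below E7.5 WT. Mmp9, a matrix-degrading protease, had 143, 54, 23 and 131, and Gata3 had 193, 220, 165 and 213. Hand1, a transcription factor needed for giant cells, had 2570, 2229, 3544 and 4028 reads and did not set KO2 apart. It is also expressed in extraembryonic mesoderm and heart. Over all kept genes, 9.41% were called higher in KO2 and 4.97% in KO1 against E8.5 WT. Of the 7 genes, 4 were called higher in KO2 and 2 in KO1 against E8.5 WT, and after adjustment edgeR passed 0 and DESeq2 passed 1, Hand1 (adjusted p = 0.00330).

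Of the 10 genes of ectoplacental cone and extraembryonic ectoderm that passed the count minimum, 6 were highest in E7.5 WT by CPM and 2 in KO2. Tpbpa and Tpbpb, which define spongiotrophoblast and its precursors, were listed at 0 in all 4 libraries. Ascl2, a regulator of the ectoplacental cone, had 358 reads in the E7.5 and 10 in the E8.5 WT library, 11 in KO1 and 54 in KO2. Elf5, a transcription factor of trophoblast stem cells, had 795, 3, 3 and 10, and Bmp8b of the extraembryonic ectoderm 340, 5, 7 and 45. For 5 of the 7 extraembryonic ectoderm genes KO2 was called lower than E7.5 WT, where 4.06% of all kept genes were. KO2 was called higher for Rhox6 and Rhox9 (10.9% of all kept genes), with 376 against 90 and 252 against 22 reads. Against E8.5 WT, the reference used for the giant cell genes, KO2 was called higher for 5 of the 7 (9.41% of all kept genes). These were Elf5, on 10 reads against 3, Tfap2c, Bmp8b, Rhox6 and Rhox9. It was called lower for 1, Cdx2 (5.91%). Of the 3 kept ectoplacental cone genes, 1, Ascl2, was called higher in KO2 than in E8.5 WT. Flt1, with 313, 549, 515 and 456 reads, was highest in KO1 by CPM, and Cdx2, with 990, 1326, 653 and 150, in E8.5 WT. The labyrinth genes Gcm1, Syna and Synb had at most 2 reads in any library. EdgeR passed 0 genes of these 3 lists, and DESeq2 passed 1, Rhox6 (adjusted p = 0.00639).

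**Figure D5:**
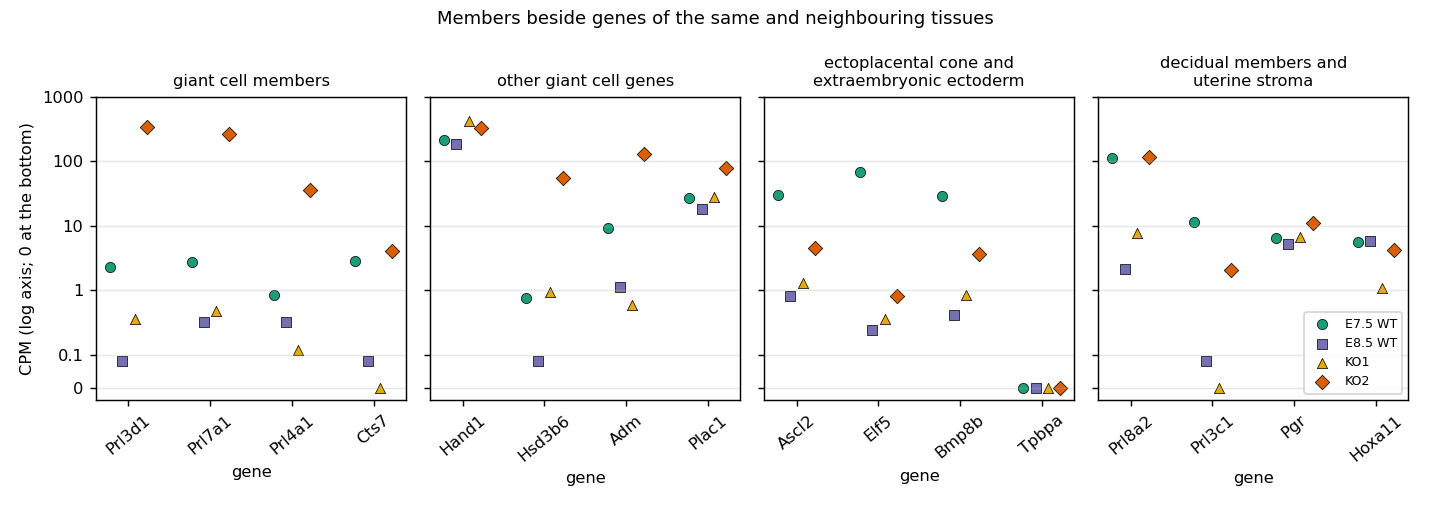
CPM of members and of genes from the same or neighbouring tissues in the 4 libraries, on a log axis with 0 at the bottom. KO2 is highest for Prl3d1, Prl7a1, Prl4a1, Hsd3b6, Adm and Plac1, and KO1 for Hand1. E7.5 WT is highest for Ascl2, Elf5 and Bmp8b, and Tpbpa is at 0 throughout. Each panel shows only some genes of its list. Of the non-member trophoblast genes not drawn, KO2 is highest for Rhox6 and Rhox9. It is not highest for Gata2, Gata3, Mmp9, Flt1, Phlda2, Esrrb, Cdx2 and Tfap2c.

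Markers of maternal tissue were read beside Prl8a2, which maternal cells make. The 5 decidual stroma genes summed to 29.8 CPM in WT at E7.5, 21.8 in WT at E8.5, 24.4 in KO1 and 27.8 in KO2, a far narrower range than that of Prl8a2. Singly they differed. Esr1 had 20, 7, 2 and 28 reads and Pgr 77, 64, 57 and 132. Cryab had 178, 102, 118 and 108, Hoxa11 66, 72, 9 and 51, and Dcn 13, 23, 19 and 20. Against E8.5 WT, 2 of the 5, Esr1 and Pgr, were called higher in KO2 (9.41% of all kept genes) and 0 lower. Some of the 5, such as Dcn and Hoxa11, are also expressed in embryonic mesenchyme. The 9 genes of uterine natural killer cells, the cytotoxic lymphocytes of the decidua, summed to 38 reads at E7.5 and 4 at E8.5 in WT, against 27 in KO1 and 267 in KO2. Of these, 7 passed the count minimum, 6 of them only through KO2, so that a higher KO2 was built into their selection. KO1 held 2 to 7 reads of each of the 7, against 0 or 1 in E8.5 WT, and edgeR and DESeq2 both passed 0 after adjustment. KO2 exceeded E7.5 WT in this list at 21.9 against 3.19 CPM, unlike Prl8a2. The adult-type globin genes were listed at 0 in all libraries, and being near-identical copies they say little about blood. The part of uterine tissue in the member values was not tested.

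Receptors of these hormones were present in every library. Prlr, the prolactin receptor that binds the lactogens, had 79 reads in the E7.5 and 121 in the E8.5 WT library, 127 in KO1 and 191 in KO2. Cd9, a surface protein that acts as a receptor for a Psg protein, had 614, 387, 397 and 999. Igf2r, which binds proliferin, had 3869, 8371, 7472 and 5142, and Ghr 129, 254, 240 and 203. Only Cd9 was called higher in KO2 against E8.5 WT, where 9.41% of all kept genes were.

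The genes nearest to each class leader in profile were found among 11929 genes with at least 50 counts in 1 library, by the distance between centred log2 CPM over the 4 libraries. Nearest to Prl3d1 outside the families was Xist, the RNA that coats the inactive X chromosome of female cells, with 46, 17, 15 and 17340 reads. The part of the sex of the cells in the KO2 values was not tested. Chrdl2, Hsd3b6, Adm and Serpinb9d followed, the last with 4, 0, 1 and 148 reads. Nearest to Prl8a2 were S100a4, with 75, 0, 4 and 64, Gpnmb, with 143, 4, 10 and 145, Xdh, Eomes and Lgals3. Nearest to Prl8a9 were Sphk1, Sbsn, Ldoc1, Pramef12 and Olr1. With 4 points, these distances are descriptions and mainly mark which libraries were high.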

How the data were processed

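The deposited values were raw read counts, not normalized, 1 row for each gene. A stranded mRNA kit was used, and reads were trimmed with Cutadapt 2.8, aligned to mm10 with HISAT2 2.1.0 and counted over exons on the sense strand with featureCounts 2.0.0 by the authors. Reads that fit several near-identical genes equally well may be lost or shared in such counting. Groups came from the sample labels. The members and lists were chosen with earlier results of these data known.

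Counts were scaled by TMM (edgeR 4.0.16, R 4.3.3; factors 0.978 to 1.02). A gene was kept when any library held 10 or more counts (14393 genes). Log2 changes used a prior count of 2 and were called past 1. Ratios of 2 libraries carry exact Clopper-Pearson 95% intervals and a floor of 3 counts. Tests were edgeR's two-sided quasi-likelihood test and, as an alternative, DESeq2 1.42.0, both with Benjamini-Hochberg adjustment. Only the edgeR test was also run on simulated counts. Their spread was set the same for every gene, so that run does not cover genes as far apart in KO1 and KO2 as the members. The p-values measure only the spread between 2 pools. Total counts of 8198402 to 12562640 set the precision. Members with at least 100 counts in 1 library, and class members with at least 10, were described singly. Words of 50 bases and gene positions came from GENCODE release 21 (GRCm38), which matched 46 of 47 members; promoters came from RefSeq. The shared promoter word was chosen after the sequences were seen.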

Additional observations from a re-analysis of the deposited data

How the results depend on the processing

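Counts of called members moved by over 1.5 times under few settings. With a threshold of 2, the members higher in KO1 than in E8.5 WT, and those higher in both KO libraries, went from 3 to 0, those higher at E7.5 than at E8.5 in wild type from 15 to 9, those lower in KO1 than in E8.5 WT from 1 to 0, and those lower in KO2 than in E7.5 WT from 2 to 1. The last also became 1 with a minimum of 50 counts. Members lower in KO1 than in E8.5 WT numbered 2 without a filter and 7 with a prior count of 0.5. Without KO replicate 1, 18 members differed upward and 0 downward from E8.5 WT, and without KO replicate 2, 3 upward and 1 downward. The edgeR count of 0 members was also 0 with DESeq2, with all 4 libraries, with DESeq2 size factors and without a filter. The log2 ratio of KO2 to E8.5 WT went from 9.22 to 8.54 for giant cell members without Prl3d1 and from 5.77 to 4.66 for decidual members without Prl8a2. Of the other values, for single members and for class sums in other pairs of libraries, 378 counted as unmoved and 6 as moved. The limit for class sums was the counting interval, and for single members a shift set by its width. Members with 0 reads in either library had no limit, so these could not count as moved. With a prior count of 0.5, Prl2c2 went from 9.33 to 11.3 for KO2 to E8.5 WT and counted as unmoved. All 6 moves came from leaving out the member with the most reads. Without Prl8a9 the spongiotrophoblast log2 ratio went from 1.20 to 3.21 for KO2 to E7.5 WT, from 3.67 to 1.63 for E7.5 WT to E8.5 WT and from -4.71 to -2.08 for KO1 to E7.5 WT. Without Prl8a2 the decidual one went from -0.03 to -2.47 for KO2 to E7.5 WT and from 5.80 to 7.12 for E7.5 WT to E8.5 WT, and without Prl3d1 that of giant cell members from 6.03 to 5.55 for KO2 to E7.5 WT. No called value changed sign under the settings run. For single members only the scaling and the prior count were varied, which could hardly reverse a change past 1, so nothing is read from this. No paired analysis was possible because each wild-type stage had 1 library. Counts of under 10 in E8.5 WT and KO1 limit every fold against them, and the wild-type libraries have no replicate.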
